A study of Mus musculus with 9 samples.

Results

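The transcripts of 9 secreted proteins named for bone morphogenetic protein (BMP), growth differentiation factor (GDF) or transforming growth factor beta (TGF-beta) were followed in crypts of the mouse jejunum: Bmp1, Bmp2, Bmp3, Bmp4, Bmp7, Bmp8b, Gdf15, Tgfb1 and Tgfb2. They were taken by symbol, and each was 1 row of the 23951 genes in both deposited tables. RNA was sequenced from 9 libraries, 3 in each of 3 groups, and the values are FPKM, in which fragment numbers are divided by transcript length and sequencing depth.

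The Smad4 KO mice were Smad4f/f;Villin-CreER(T2), with floxed Smad4 alleles and a recombinase that tamoxifen switches on. The double mutants were Smad4f/f; Ex3f/+;Villin-CreER(T2). Ex3f is read here as the Ctnnb1 allele with a floxed exon 3, which yields stabilised beta-catenin after recombination. Tamoxifen was given to both mutant groups for 4 days in a row, and crypts were taken 1 day afterwards. The controls carry no genotype in the labels beyond control mouse, and their treatment is labelled vehicle while the design text calls them uninjected. Genotype, recombinase and tamoxifen therefore cannot be told apart between mutants and controls, and the animals' ages are not stated. The Villin promoter drives the recombinase in intestinal epithelium, so stromal and immune cells, which are also sources of these ligands, keep Smad4. Whether libraries of 1 group are separate mice is not labelled, so p-values measure only the spread between libraries.

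Ligands of this family bind pairs of type I and type II receptor kinases, which phosphorylate receptor SMADs, and these enter the nucleus with Smad4, the SMAD common to the BMP and TGF-beta branches. In the small intestine BMP signalling is strong in the villus and is held down at the crypt base by antagonists that stromal cells secrete. Bmp2 is known from differentiated epithelium and Bmp4 from the mesenchyme beneath it. Gdf15 is a distant relative that cells release under stress, and Bmp1 is a metalloproteinase and not a ligand.

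The clearest difference among the 9 transcripts was in Gdf15, and its promoter is shown for that reason. The window holds the 250 bases before the more upstream of the 2 annotated Gdf15 starts, from RefSeq on build GRCm38.p6, chr8:70632457-70632706, minus strand, written 5′ to 3′ along the gene. Capitals mark GTCTG, a short sequence that SMAD proteins bind and that begins as does their palindromic element GTCTAGAC.
Gdf15 promoter: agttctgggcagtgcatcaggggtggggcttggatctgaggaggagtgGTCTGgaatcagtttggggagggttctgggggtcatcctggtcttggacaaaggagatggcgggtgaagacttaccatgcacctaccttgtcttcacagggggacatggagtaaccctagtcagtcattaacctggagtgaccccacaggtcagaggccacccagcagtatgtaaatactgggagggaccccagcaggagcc
Both strands were searched, and GTCTG lay once, on the gene's strand, 202 bases before the start. It is common, in 42.2% of the 32536 promoter windows of that length. None of the other motifs searched was in the window: the whole GTCTAGAC (0.169% of all windows), the TATA box TATAAA (12.3%), the GC box GGGCGG (33.0%), TGATGNAA, the core of the C/EBP-ATF element (3.40%), and the p53 decamer (7.12%). GTCTG shares its first 4 letters with GTCTAGAC and overlaps no other motif of the search in this window. A window was held for 5 of the 9 genes (Bmp4, Bmp8b, Gdf15, Tgfb1 and Tgfb2), and Bmp1, Bmp2, Bmp3 and Bmp7 are named only.

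Smad4 itself was at 11.0, 9.96 and 10.8 FPKM in Smad4 KO libraries 0, 1 and 2, against 46.1, 55.5 and 47.8 FPKM in control libraries 0, 1 and 2, which left 21.3% of the control mean. In the double mutants it was at 11.2, 10.2 and 9.95 FPKM, against 47.5, 58.8 and 49.8 FPKM in controls, or 20.1% of the control mean. Neither mutant group overlapped its controls (adjusted p = 0.00664 and 0.00176; limma, Benjamini-Hochberg). Crypt markers were present in all libraries, with Lgr5 of stem cells at 2.64 to 21.6 FPKM in mutants and 6.04 to 8.69 FPKM in controls and 9 of 9 stem cell markers tested. Enterocyte transcripts were there too, which bears on Bmp2. Several libraries stood apart. Smad4 KO 0 had a summed Paneth marker level of 9123 FPKM against 53624 to 125661 FPKM in controls. Double mutants 1 and 2 were at 29854 and 52198 FPKM, against 55931 to 129575 FPKM. Smad4 KO 1 was low in immune markers (26.2 FPKM against 111 to 198 FPKM) and enterocyte markers (1368 FPKM against 4391 to 12178 FPKM). Smad4 KO 2 and double mutant 0 carried stromal and red blood cell transcripts. Relative depth, read from the spacing of low values, ran from 0.969 to 1.42 times that of control 0; absolute depth is unknown. Transcripts of every cell such as Gapdh and Ppia were listed below 1 FPKM, so an exact 0 is only a listed value. In bulk RNA, fewer cells of a type and less RNA per cell cannot be told apart.

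FPKM is scaled by transcript length, so listed levels are set beside each other below. Gapdh and Ppia, however, averaged only 0.609 and 0.451 FPKM in controls of the first table. A listed level thus need not give a transcript's abundance, and order and shares are those of listed values. Bmp2, Bmp3 and Bmp7 were at 1 FPKM or above in every library of both tables. Bmp4, Bmp8b and Tgfb2 lay below 1 FPKM in every library. Bmp1, Tgfb1 and Gdf15 crossed that level: Bmp1 was below it in control 1 alone, Tgfb1 in Smad4 KO 1, double mutants 1 and 2 and controls 1 and 2, and Gdf15 in all 3 controls and in no mutant library. Between 3 and 4 of the 9 lay below 1 FPKM in a mutant library, and between 4 and 6 in a control library.

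In the controls of the first table the order of mean levels was Bmp3, Bmp7, Bmp2, Bmp1, Tgfb1, Gdf15, Bmp8b, Tgfb2 and Bmp4. The ranges of neighbours overlapped from Bmp1 down to Bmp8b, and those from Bmp3 to Bmp1 did not. Gdf15 held the second place in the Smad4 KO libraries, where its range overlapped that of Bmp7 below it, and the third in the double mutants, where it overlapped neither Bmp7 above nor Bmp2 below. With Gdf15 left aside, the order Bmp3, Bmp7, Bmp2, Bmp1, Tgfb1 and Bmp8b was the same in all groups.

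**Figure D1:**
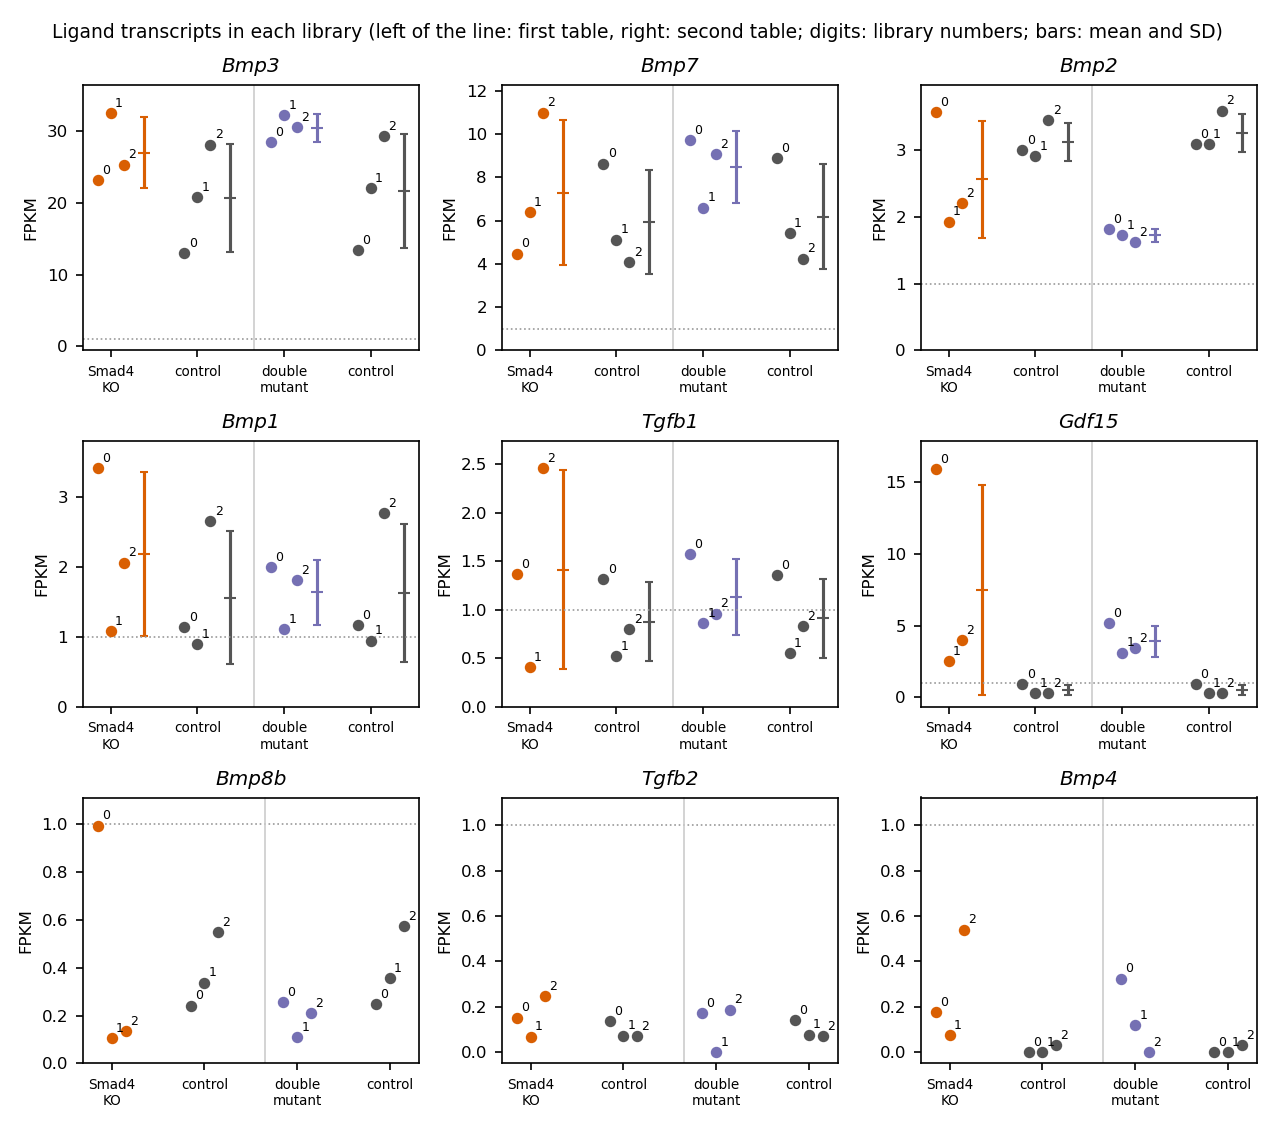
FPKM of the 9 transcripts (vertical axis) in each library, with the Smad4 KO libraries and their controls left of the line in each panel and the double mutants and their controls right of it. Digits are library numbers, bars show the mean and SD of 3 libraries for transcripts that reach 1 FPKM, and the dotted line is 1 FPKM; Gdf15 in the mutants (2.53 to 15.9 FPKM) lies above its controls (0.283 to 0.933 FPKM).

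Of the 9 transcripts, 6 reached the mean of 1 FPKM over 6 libraries that the test required. None of the 6 was called in Smad4 KO crypts at an adjusted p below 0.05 (limma, Benjamini-Hochberg), where 0.0338% of all 11849 genes tested were called (0.00844% higher and 0.0253% lower), and 1 of the 6, Gdf15, had an unadjusted p below 0.05, against 19.1% of all genes. In the double mutants 2 of the 6 were called, where 18.5% of 11762 genes were called: Gdf15 rose (9.39% of all genes rose) and Bmp2 fell (9.09% of all genes fell). The unadjusted p was below 0.05 for these 2 and for 36.6% of all genes. The median difference over the 6 was 0.30 in each comparison on the log2(FPKM + 1) scale, with 5 of 6 above 0, and the median of all genes was -0.00 in each. Gdf15 and Tgfb1 had control means below 1 FPKM in both tables and entered the test through the mutant libraries. The filter thus favoured a difference above 0 for both, and the median and the 5 of 6 are descriptions only. Both comparisons share the 3 control libraries, and differences on this scale understate changes of genes at low level.

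**Figure D2:**
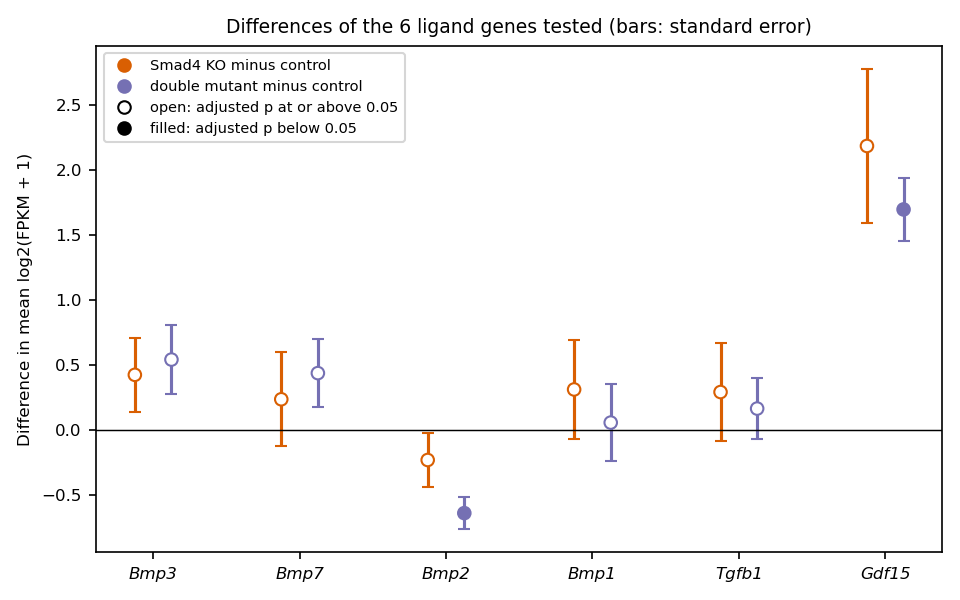
Difference between mutant and control libraries for the 6 tested transcripts, as log2(FPKM + 1) of mutants minus controls (vertical axis), with bars of 1 SE and filled points for adjusted p below 0.05. Gdf15 lies at 2.18 in the Smad4 KO and 1.69 in the double mutants, and Bmp2 at -0.23 in the Smad4 KO and -0.64 in the double mutants.

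Gdf15 was higher in every mutant library than in any control. It was at 15.9, 2.53 and 3.97 FPKM in Smad4 KO libraries 0, 1 and 2, against 0.904, 0.283 and 0.295 FPKM in control libraries 0, 1 and 2. In the double mutants it was at 5.15, 3.10 and 3.41 FPKM, against 0.933, 0.300 and 0.308 FPKM in controls. The groups did not overlap in either table, and Smad4 KO 0 stood far above the other libraries. In the Smad4 KO the mean was 7.46 ± 7.34 FPKM, against 0.494 ± 0.355 FPKM in controls (SD, n = 3 each), a ratio of 15.1, and the difference of 2.18 ± 0.596 (SE, log2 scale) did not pass limma (adjusted p = 0.168). The exact permutation test of these values gave p = 0.1, the smallest that 3 against 3 libraries allow. Without Smad4 KO 0 the difference was 1.51. The double mutants averaged 3.89 ± 1.10 FPKM, against 0.514 ± 0.363 FPKM in controls (SD, n = 3 each), a ratio of 7.57, and the difference of 1.69 ± 0.245 (SE, log2 scale) passed limma (adjusted p = 0.0151). The call was lost without double mutant 0 (adjusted p = 0.0539) and without double mutant 2 (adjusted p = 0.0727). With a pseudocount of 0.1 in place of 1 the difference was 2.82 in double mutants and 3.38 in the Smad4 KO. Its control mean lies below 1 FPKM, so Gdf15 entered the test through the mutant libraries; with no filter on low values the adjusted p was 0.0243. The cognate receptor gene Gfral, named after its values were seen, was listed at 0 in every library.

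Gdf15 is known as a target of p53 and of the integrated stress response, and both lists were read beside it with Gdf15 left out. In the double mutants 10 of 23 p53 targets rose and 2 fell, where 9.39% of all genes rose and 9.09% fell. The called genes given with values below were those of smallest p, and the 2 that fell are not among them. The median difference of the list was 0.38 on the log2 scale against -0.00 over all genes. Gtse1, a mitotic regulator, averaged 20.4 ± 0.875 FPKM in double mutants and 7.05 ± 1.05 FPKM in controls (adjusted p = 0.00694), and Phlda3, an inhibitor of Akt, averaged 8.02 ± 2.34 FPKM in double mutants and 0.367 ± 0.191 FPKM in controls (adjusted p = 0.00694; SD, n = 3 each; limma). Like Gdf15, Phlda3 and 1 more of the 10 that rose had a control mean below 1 FPKM and entered the test through the mutant libraries. Bax, which opens mitochondria in apoptosis, averaged 105 ± 5.46 FPKM in double mutants and 52.6 ± 2.94 FPKM in controls (SD, n = 3 each; adjusted p = 0.00832). In the Smad4 KO none of the 23 was called by limma, although 10 had an unadjusted p below 0.05 in either direction, against 19.1% of all genes. The median difference of the list was 0.66 there. Aen, an apoptotic nuclease, averaged 20.6 ± 3.87 FPKM in Smad4 KO and 8.28 ± 1.33 FPKM in controls (SD, n = 3 each, adjusted p = 0.106 in limma). The mean log2(FPKM + 1) of the list was 5.06, 3.86 and 4.02 in Smad4 KO libraries 0, 1 and 2, against 3.61, 3.61 and 3.57 in controls. It was 4.15, 4.07 and 4.13 in double mutant libraries, against 3.65, 3.68 and 3.62 in controls. Smad4 KO 0 was thus the highest library both for Gdf15 and for the list. That library was also extreme in composition. It had the highest enterocyte sum (15560 FPKM) and the lowest Paneth and stem cell sums (9123 and 443 FPKM) of its table. Of the 19 genes of the unfolded protein and integrated stress responses, 4 rose in double mutants, where 9.39% of all genes rose. Among them were Sesn2 (also a p53 target), Shmt2 and Atf5, and the list median was 0.07. None of the 19 was called by limma in the Smad4 KO, with a list median of 0.25. There 4 had an unadjusted p below 0.05, against 19.1% of all genes. The mean log2(FPKM + 1) of this stress list was 4.52, 4.41 and 5.29 in Smad4 KO libraries 0, 1 and 2, against 4.83, 4.22 and 4.21 in controls. Smad4 KO 0, the highest for Gdf15, thus lay below control 0 here. In double mutant libraries it was 5.01, 4.39 and 4.67, against 4.87, 4.29 and 4.27 in controls. The part of either list in the Gdf15 difference was not tested.

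**Figure D3:**
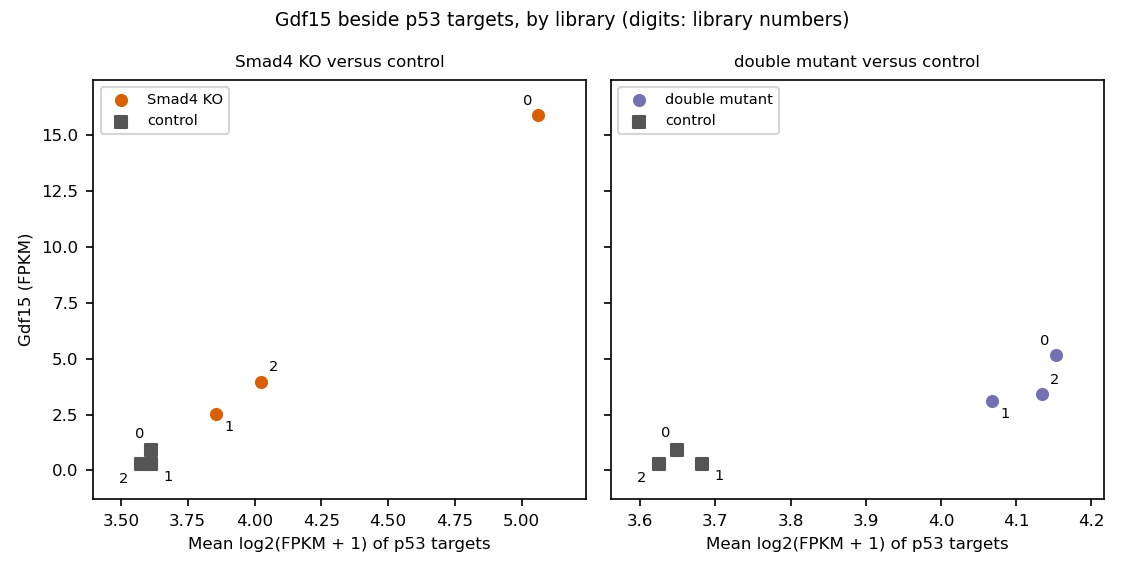
Gdf15 level in FPKM (vertical axis) against the mean log2(FPKM + 1) of 23 p53 targets without Gdf15 (horizontal axis), for mutant libraries (circles) and controls (squares) of each table, with library numbers. All mutant libraries lie above and to the right of all controls, and Smad4 KO 0 is the highest on both axes.

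Bmp2, the BMP ligand of differentiated epithelium, was lower in all double mutant libraries than in any control. It was at 1.82, 1.73 and 1.62 FPKM in double mutant libraries 0, 1 and 2, against 3.09, 3.09 and 3.59 FPKM in controls. The means were 1.72 ± 0.0990 FPKM in double mutants and 3.26 ± 0.290 FPKM in controls (SD, n = 3 each), so 52.9% of the control level was left. The difference of -0.64 ± 0.125 (SE, log2 scale) passed limma (adjusted p = 0.0248), and the call was lost when any 1 of double mutants 0, 1 and 2 (adjusted p = 0.0710, 0.0627 and 0.103) or control 2 (0.0618) was left out. In the Smad4 KO libraries Bmp2 was at 3.57, 1.93 and 2.20 FPKM, against 3.00, 2.91 and 3.44 FPKM in controls. Libraries 1 and 2 lay below all controls and library 0 above all of them, and the difference of -0.23 ± 0.206 (SE) did not pass (adjusted p = 0.569).

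Markers of enterocytes, the absorptive cells of the villus, were also lower in the double mutants. Their summed level over 18 genes was 1365, 2582 and 2450 FPKM in double mutant libraries, against 4528, 6212 and 12702 FPKM in controls. Of the 18, 14 were called lower, where 9.09% of all genes were. Sis, the brush border sucrase-isomaltase, averaged 43.0 ± 12.4 FPKM in double mutants and 446 ± 202 FPKM in controls (SD, n = 3 each; adjusted p = 0.0107 in limma). In the Smad4 KO the sums were 15560, 1368 and 2548 FPKM, against 4391, 5863 and 12178 FPKM in controls. None of the 18 was called by limma, and 2 had an unadjusted p below 0.05, against 19.1% of all genes. The library with high Bmp2, Smad4 KO 0, also had the highest enterocyte sum, and Smad4 KO libraries 1 and 2 were low in both. By the mean log2(FPKM + 1) of the markers, Smad4 KO 0 (8.18) lay below control 2 (8.44). Within the double mutants the order was not shared: library 0 had the highest Bmp2 and the lowest enterocyte sum. The part of enterocyte content in the Bmp2 difference was not tested.

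**Figure D4:**
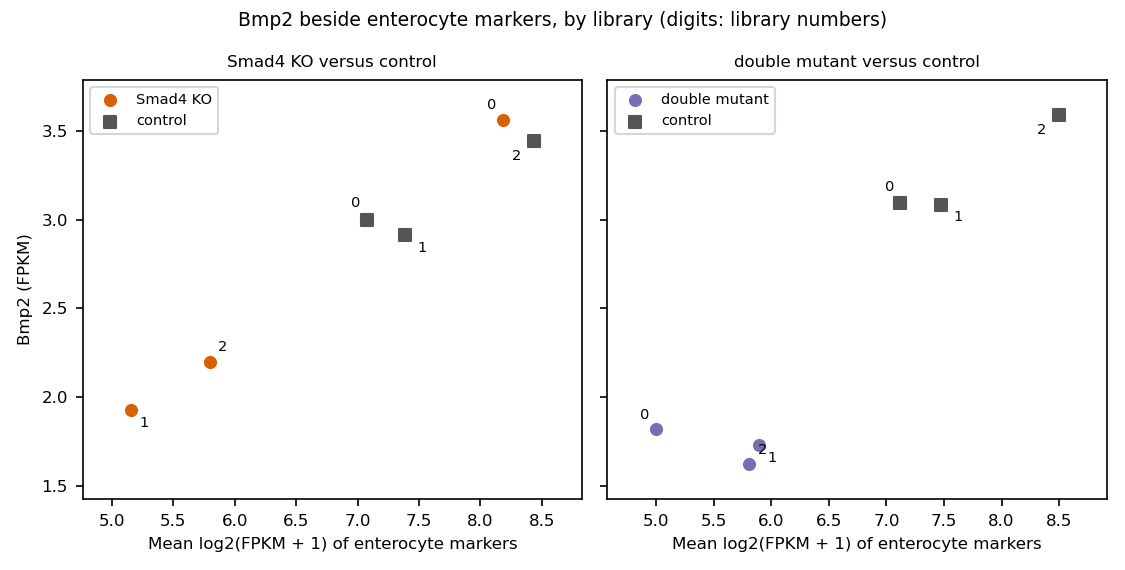
Bmp2 level in FPKM (vertical axis) against the mean log2(FPKM + 1) of 18 enterocyte markers (horizontal axis), for mutant libraries (circles) and controls (squares) of each table, with library numbers. The double mutants (1.62 to 1.82 FPKM) lie below the controls (3.09 to 3.59 FPKM) and to their left, while Smad4 KO 0 (3.57 FPKM) lies at the upper right with the controls.

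Bmp3, an atypical BMP that antagonises other BMPs in bone, had the highest listed level of the 9 in every library. It was at 23.2, 32.5 and 25.3 FPKM in Smad4 KO libraries, against 13.0, 20.8 and 28.1 FPKM in controls. Double mutant libraries had 28.4, 32.3 and 30.6 FPKM, against 13.4, 22.0 and 29.3 FPKM in controls. The ranges overlapped in both tables, and the controls spread more widely than the double mutants (30.4 ± 1.92 FPKM in double mutants, 21.6 ± 7.96 FPKM in controls; SD, n = 3 each). Neither difference passed limma (0.42 ± 0.286, adjusted p = 0.469, in the Smad4 KO and 0.54 ± 0.263, adjusted p = 0.192, in double mutants; SE, log2 scale). Bmp3 made up 43.6%, 72.1% and 52.8% of the summed level of the 9 in Smad4 KO libraries and 57.5%, 70.3% and 63.9% in double mutants, against 45.9%, 67.2% and 70.3% in controls.

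Bmp7, a ligand that signals as a homodimer or together with Bmp2 or Bmp4, was the next in level in the controls. It was at 4.47, 6.38 and 11.0 FPKM in Smad4 KO libraries, against 8.63, 5.12 and 4.06 FPKM in controls. In double mutants it was at 9.73, 6.60 and 9.08 FPKM, against 8.90, 5.42 and 4.24 FPKM in controls. The ranges overlapped in both tables, and neither difference passed (0.23 ± 0.363, adjusted p = 0.759, in the Smad4 KO and 0.43 ± 0.261, adjusted p = 0.278, in double mutants; SE, log2 scale). Without Smad4 KO 2, the library with the highest Bmp7 of its group, the Smad4 KO difference was -0.072.

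Bmp1 encodes procollagen C-proteinase, which also cleaves the BMP antagonist chordin. It was at 3.41, 1.08 and 2.06 FPKM in Smad4 KO libraries, against 1.13, 0.891 and 2.65 FPKM in controls. The double mutants had 1.99, 1.11 and 1.81 FPKM, against 1.17, 0.944 and 2.76 FPKM in controls. All groups overlapped, and the differences of 0.31 ± 0.378 in the Smad4 KO (adjusted p = 0.689) and 0.05 ± 0.297 in double mutants (adjusted p = 0.913; SE, log2 scale) did not pass.

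Tgfb1, which is secreted in a latent complex and is made by immune and stromal cells as well as by epithelium, was at 1.37, 0.411 and 2.46 FPKM in Smad4 KO libraries, against 1.32, 0.522 and 0.799 FPKM in controls. Double mutant libraries had 1.58, 0.861 and 0.961 FPKM, against 1.36, 0.553 and 0.833 FPKM in controls. The groups overlapped, and the differences of 0.29 ± 0.378 in the Smad4 KO (adjusted p = 0.708) and 0.16 ± 0.238 in double mutants (adjusted p = 0.653; SE, log2 scale) did not pass. The highest Tgfb1 was in Smad4 KO 2 and double mutant 0, the libraries with most stromal and red blood cell transcripts. Summed immune markers ranged from 26.2 to 228 FPKM in Smad4 KO libraries and from 111 to 198 FPKM in their controls. None of 15 was called by limma, and 1 had an unadjusted p below 0.05, against 19.1% of all genes. The immune sums ranged from 35.5 to 88.5 FPKM in double mutants and from 117 to 204 FPKM in their controls. Of 13 tested, 7 were called lower, led by the T cell genes Cd3g, Gzmb and Cd8a, where 9.09% of all genes were.

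Bmp4, the mesenchymal BMP, was at 0.176, 0.0749 and 0.540 FPKM in Smad4 KO libraries, against 0, 0 and 0.0296 FPKM in controls. The double mutants had 0.324, 0.117 and 0 FPKM, against 0, 0 and 0.0308 FPKM in controls. It was above all controls in each Smad4 KO library and overlapped them in double mutants, but every value lay far below 1 FPKM and Bmp4 was not tested. Bmp4 and Gdf15 were the 2 of the 9 whose Smad4 KO and control libraries did not overlap, and Gdf15 and Bmp2 were the 2 in double mutants. Of the 6 tested transcripts this held for 1 in the Smad4 KO and 2 in double mutants. Among all tested genes, 26.4% did not overlap in the Smad4 KO comparison and 42.6% in that of double mutants.

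The library with the highest Bmp4 in each mutant group was the one with most stromal RNA. The 19 markers of mesenchyme, muscle and endothelium found in the tables summed to 30.6, 11.3 and 108 FPKM in Smad4 KO libraries, against 11.4, 7.54 and 13.4 FPKM in controls. In double mutants they summed to 70.7, 8.97 and 12.2 FPKM, against 11.8, 7.99 and 13.9 FPKM in controls. Dcn, the fibroblast proteoglycan decorin, reached 47.8 FPKM in Smad4 KO 2 and 27.2 FPKM in double mutant 0. None of the tested stromal markers, 6 in the Smad4 KO and 5 in double mutants, was called by limma or had an unadjusted p below 0.05; none of the 19 was listed at 0 in all libraries of the first table, and Foxl1 alone was in the second. Red blood cell transcripts summed to 51.2 FPKM in Smad4 KO 2, against 1.44 to 6.30 FPKM in controls, and to 36.7 FPKM in double mutant 0, where Hbb-b1, a beta globin, was at 26.1 FPKM, against 4.67, 1.47 and 1.06 FPKM in controls. The part of stromal RNA in the Bmp4 and Tgfb1 values was not tested.

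**Figure D5:**
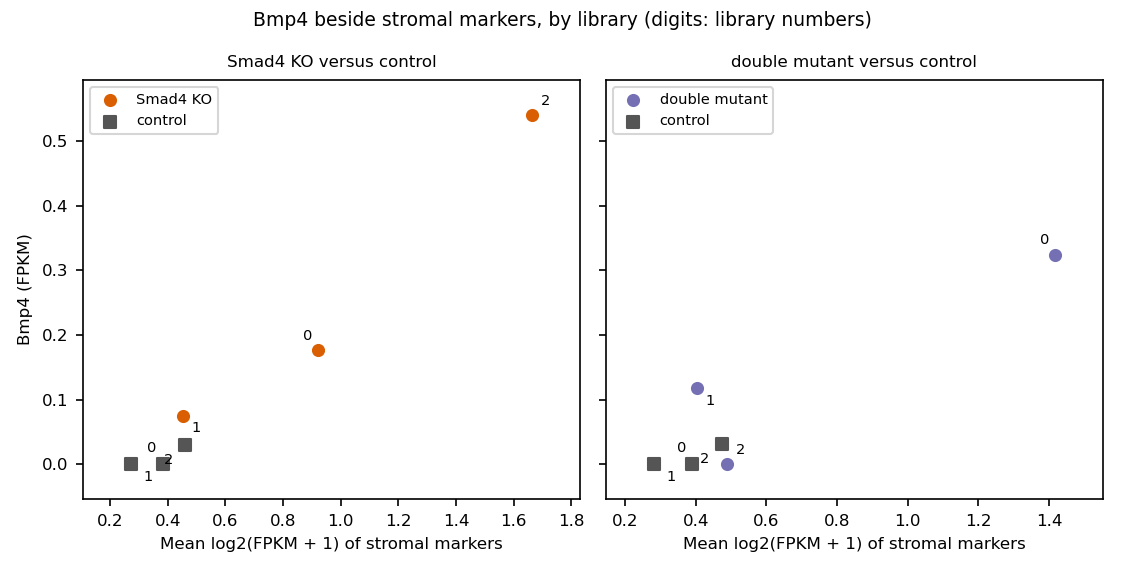
Bmp4 level in FPKM (vertical axis) against the mean log2(FPKM + 1) of 19 markers of mesenchyme, muscle and endothelium (horizontal axis), for mutant libraries (circles) and controls (squares) of each table, with library numbers. The highest Bmp4 values, 0.540 FPKM in Smad4 KO 2 and 0.324 FPKM in double mutant 0, lie in the libraries with the highest stromal marker level.

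Tgfb2, a TGF-beta isoform, was at 0.152, 0.0674 and 0.247 FPKM in Smad4 KO libraries, against 0.137, 0.0723 and 0.0686 FPKM in controls. In double mutants it was at 0.173, 0 and 0.187 FPKM, against 0.141, 0.0766 and 0.0715 FPKM in controls. These ranges overlapped. Bmp8b, known from brown fat and germ cells, was at 0.995, 0.106 and 0.136 FPKM in Smad4 KO libraries, against 0.241, 0.338 and 0.549 FPKM in controls. In double mutants it was at 0.256, 0.109 and 0.210 FPKM, against 0.249, 0.358 and 0.573 FPKM in controls. The groups overlapped, and Smad4 KO 0 again had the highest value. Bmp8b has a near-identical neighbour, Bmp8a, so the assignment of its fragments is uncertain; Bmp8a was at 1.36, 0.387 and 0.524 FPKM in Smad4 KO libraries, against 0.863, 0.562 and 1.46 FPKM in controls. Bmp8a was at 0.576, 0.514 and 0.490 FPKM in double mutants, against 0.890, 0.596 and 1.52 FPKM in controls, and so lay below all controls there.

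The genes whose log2(FPKM + 1) was most like that of a tested transcript were ranked by the lower of the Pearson r over the 6 libraries of each table, among 8412 genes (8411 for Bmp3 and Bmp7) at a mean of 5 FPKM or more. These r are descriptions over 6 libraries that share groups, library composition and, between tables, controls. For Gdf15 they were Zfp219 (r = 0.991), Rnf169 (0.985) and Cdk9 (0.979), and for Bmp2 they were Pxdc1 (0.984), Osgin1 (0.983) and Lgals3 (0.982). For Bmp3 they were Sec61g (0.929), Llph (0.926) and Fitm2 (0.921), and for Bmp7 Ephb3 (0.987), Mthfd2 (0.983) and Selm (0.970). For Bmp1 they were Stk25 (0.936), Anks3 (0.927) and Tjap1 (0.927), and for Tgfb1 Npdc1 (0.956), Ifi27l2a (0.939) and Apoe (0.924). The first-ranked gene of Bmp1, Bmp3 and Tgfb1 had a lower r than the third-ranked gene of Bmp2, Bmp7 and Gdf15.

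Most of the family outside the 9 was listed at low levels. Of 25 other ligands of the family, 22 were below 1 FPKM in every library of each table and 2 were tested. Inha, the inhibin alpha subunit, was at 0.619, 2.07 and 12.4 FPKM in Smad4 KO libraries, against 6.71, 0.778 and 0.912 FPKM in controls, and Lefty1, an inhibitor of Nodal, averaged 1.82 ± 1.11 FPKM in Smad4 KO and 1.12 ± 0.462 FPKM in controls (SD, n = 3 each). Neither was called by limma, nor had an unadjusted p below 0.05, in either comparison. The 9, Bmp1 included, made up between 71.7% and 91.8% of the summed FPKM of these 34 genes in a library.

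Of 19 secreted antagonists 4 were tested. None was called in the Smad4 KO, nor had an unadjusted p below 0.05 in limma. In double mutants 1 of the 4 rose, where 9.39% of all genes rose. This was Smoc2, a matricellular protein that also marks crypt base stem cells, at 93.4, 92.3 and 107 FPKM in double mutants, against 57.5, 60.0 and 50.4 FPKM in controls (adjusted p = 0.0142, limma). Of the genes for ligand processing and latent TGF-beta activation, 8 were tested in the Smad4 KO and 7 in double mutants, and none was called or had an unadjusted p below 0.05; Thbs1, which activates latent TGF-beta, averaged 5.58 ± 2.36 FPKM in double mutants and 2.65 ± 1.35 FPKM in controls (SD, n = 3 each; adjusted p = 0.159).

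Of 18 receptors and co-receptors 11 were tested. Tgfbr2, the type II receptor for TGF-beta, averaged 7.95 ± 3.01 FPKM in Smad4 KO and 3.07 ± 0.483 FPKM in controls (SD, n = 3 each) without passing (adjusted p = 0.158, limma), and it rose in double mutants to 6.98 ± 0.901 FPKM, against 3.21 ± 0.550 FPKM in controls (SD, n = 3 each; adjusted p = 0.0171). It was the only 1 of the 11 called in double mutants, where 9.39% of all genes rose. In the Smad4 KO none was called by limma and 2 of the 11 had an unadjusted p below 0.05, against 19.1% of all genes. Counts so near the shares of all genes are no result about the receptors. Of 12 SMAD transducers 11 were tested: Smad4 fell in both mutants, and Smad1, a receptor SMAD of the BMP branch, fell in double mutants to 21.0 ± 1.99 FPKM, against 29.3 ± 2.77 FPKM in controls (SD, n = 3 each; adjusted p = 0.0389). These were 2 of the 11 called lower in double mutants, where 9.09% of all genes fell, and Smad4 is the targeted gene.

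Of 15 tested genes that answer to BMP and TGF-beta signals, 1 fell in the Smad4 KO, where 0.0253% of all genes fell, and 5 fell in double mutants, where 9.09% did; none was called higher. Id3, an inhibitor of basic helix-loop-helix factors and a direct BMP target, averaged 11.9 ± 2.14 FPKM in Smad4 KO and 63.3 ± 11.2 FPKM in controls (SD, n = 3 each; adjusted p = 0.0444, limma). The groups were far apart, but the call was lost without Smad4 KO 1 (adjusted p = 0.0708), Smad4 KO 2 (0.106), control 1 (0.142) or control 2 (0.113). It was also lost with no filter on low values (0.0903), without a mean-variance trend (0.0661) and with a replicate block (0.234). In double mutants it averaged 14.0 ± 2.87 FPKM, against 66.1 ± 11.9 FPKM in controls (adjusted p = 0.00694). Tgfbi, a matrix protein induced by TGF-beta, averaged 8.55 ± 1.95 FPKM in double mutants and 82.0 ± 29.2 FPKM in controls (adjusted p = 0.00758), and Id2 averaged 8.91 ± 2.54 FPKM in double mutants and 30.7 ± 5.66 FPKM in controls (adjusted p = 0.0126; SD, n = 3 each). Id4, a relative of Id3 named after its values were seen, lay the other way: it was at 6.93, 5.32 and 4.99 FPKM in Smad4 KO libraries, against 3.84, 2.41 and 3.18 FPKM in controls (adjusted p = 0.162), and at 5.63, 4.64 and 8.40 FPKM in double mutants, against 3.96, 2.55 and 3.32 FPKM in controls (adjusted p = 0.0696, limma). Its mutant libraries lay above all controls in both tables without passing the test.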

How the data were processed

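Jejunal crypt RNA was sequenced with an unstranded TruSeq kit, per the labels' protocols. The authors deposited FPKM in 2 tables, 1 with Smad4 KO and control libraries and 1 with double mutants and the same controls. Per the submitters' processing notes, TopHat2 2.1.1, Cuffnorm 2.2.1, Cuffdiff 2.2.1 and build mm9 were used; no annotation is named. The tables were normalised separately (controls differ by factors of 1.03, 1.06 and 1.04), so each was tested alone.

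Genes averaging 1 FPKM or more across the 6 libraries of a table were tested on log2(FPKM + 1) with limma 3.58.1 (R 4.3.3; empirical Bayes with trend, two-sided, Benjamini-Hochberg over all genes tested, called below 0.05). On simulated data with the spread of these libraries the test recovered 46% of 2-fold and 74% of 4-fold changes among 11849 genes in the Smad4 KO comparison, and 64% of 2-fold and 80% of 4-fold changes among 11762 genes in that of double mutants. The changed genes were drawn from those at a mean of 2 FPKM or more, which leaves out Bmp1 and Tgfb1. Each simulated gene varied independently, whereas genes of real libraries shift together with composition. These rates therefore need not hold for the ligand transcripts. FPKM holds no read numbers, so no counting interval is given.

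Members and lists were chosen with earlier results of these data known. Named genes were the members, Smad4, up to 3 called genes per list by p (or up to 2 tested ones where none was called) and the 3 most alike genes; Gfral, Bmp8a, Id4, Lgr5, Gapdh, Ppia, Foxl1 and Dcn in double mutants are named besides, with their values seen. Alternatives were another pseudocount, filter or scaling, no trend, a replicate block, sex as a covariate, and leaving out each library. Sequences are from RefSeq on GRCm38.p6; mm9 differs, so no other coordinates are given.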

Additional observations from a re-analysis of the deposited data

How the results depend on the processing

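Of 151 recomputed differences of single ligand transcripts, 139 were counted as the same, 7 lost a call and 5 changed sign. For transcripts tested in the main run, the same means the same direction and side of the threshold. Bmp4, Bmp8b and Tgfb2 were not tested there and have no such side, so only their difference was compared. They were recomputed only with no filter, where a difference cannot change, so their label was fixed in advance. Runs in which a transcript missed the filter are not among the 151. The calls of Gdf15 and Bmp2 that drop out at a mean of 5 FPKM are thus not among the 7. Another filter or none, no trend and a replicate block leave a difference unchanged by design, so only its p could move. Sex was inferred from the level of Xist against that of Y-linked transcripts. By this reading 2 of 3 mutant libraries in each group and 1 of 3 controls were female. The Bmp1 difference in double mutants was -0.17 with sex as a covariate and ranged from -0.13 to 0.35 when a library was left out. The Bmp7 difference in the Smad4 KO ranged from -0.072 to 0.50 when a library was left out. The cause was not tested.

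In the Smad4 KO comparison, 4 genes were called in the main test, 2 with sex as a covariate and between 5 and 16 without 1 library. No ligand was called under any alternative run, and the adjusted p of Gdf15 ranged from 0.114 to 0.381. In double mutants 2173 genes were called, 1392 with no filter, where more genes are tested, and between 30 and 1555 without 1 library, where fewer samples are. Of the ligands 2 were called, between 0 and 2 without 1 library, and 0 at a mean of at least 5 FPKM, a filter that leaves out both Gdf15 and Bmp2.

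With sex as a covariate Smad4 had an adjusted p of 0.0553 in the Smad4 KO comparison. Of 23 other genes named as called in double mutants, 21 lost the call without double mutant 2 (adjusted p from 0.0511 to 0.145), all but Smad4 and Id3.

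The replicate numbers do not pair the libraries by the labels. Deviations of same-numbered libraries correlated at -0.111, 0.223 and -0.0987 in the Smad4 KO comparison and 0.0720, 0.132 and 0.0374 in that of double mutants. In double mutants every library correlated best with its own number, but for control 2 only by 0.0374 against 0.0323. In the Smad4 KO comparison unlike numbers reached 0.211 (Smad4 KO 0 with control 2) and 0.198 (Smad4 KO 2 with control 0). Whether libraries are paired cannot be told from these values. With a replicate block 1 gene was called in the Smad4 KO comparison, neither Smad4 nor Id3 (adjusted p = 0.234 each), and 1 ligand, Gdf15, in double mutants (Bmp2 adjusted p = 0.0543). Depth is unknown, which limits statements on the transcripts below 1 FPKM.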

Other observations

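Markers of other crypt cell types were read against the 18.5% of all tested genes called in double mutants; a share near that figure is no result about a cell type, and the genes are given as values. In double mutants 3 of 14 enteroendocrine markers rose: Neurog3, the endocrine fate factor, averaged 10.5 ± 2.86 FPKM in double mutants and 4.73 ± 0.0814 FPKM in controls, Pyy, a gut hormone, 18.5 ± 3.87 FPKM in double mutants and 4.35 ± 2.53 FPKM in controls, and Insm1, an endocrine transcription factor, 3.38 ± 0.661 FPKM in double mutants and 1.76 ± 0.154 FPKM in controls (SD, n = 3 each; adjusted p = 0.0218, 0.0243 and 0.0386, limma). Of 9 crypt base stem cell markers 2 rose, Smoc2 and Lgr5, and Lgr5 averaged 16.9 ± 4.12 FPKM in double mutants and 7.37 ± 1.22 FPKM in controls (adjusted p = 0.0203). The goblet cell gene Clca3 fell to 171 ± 28.5 FPKM in double mutants, against 888 ± 288 FPKM in controls (adjusted p = 0.0121), 1 of 10 goblet markers called. Siglec5 fell to 1.14 ± 0.919 FPKM in double mutants, against 5.51 ± 2.17 FPKM in controls (adjusted p = 0.0345), 1 of 8 tested tuft cell markers called (SD, n = 3 each). None of 10 tested Paneth markers was called by limma or had an unadjusted p below 0.05 in either comparison. In the Smad4 KO no marker of these types was called by limma. The unadjusted p was below 0.05 for 7 of 14 enteroendocrine, 4 of 8 tuft and 1 of 10 goblet markers. It was below 0.05 for none of the 9 of stem cells, against 19.1% of all genes tested.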
